A study of Mus musculus with 28 samples.

Results

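Conventional dendritic cells (cDCs) of type 1 (cDC1) and type 2 (cDC2) from the spleen of untreated control mice were compared by bulk RNA-seq. The comparison rests on 16 of the 28 libraries of the series, 8 labelled cDC1 WT and 8 labelled cDC2 WT, chosen by their titles. Both groups came from C57Bl/6 mice aged 6 to 12 weeks of genotype Irf8fl/fl, so both carry an Irf8 gene flanked by loxP sites, and no Cre is named for them. Cells were taken as CD24+ for cDC1 and as CD172a+ for cDC2 by flow cytometry after a digestion of the spleen at 37 degrees for 30 min. The series asks what the transcription factor IRF8 does in mature dendritic cells, and these libraries were its controls. The labels number the mice 1 to 8 in each group without saying that the same number in both groups is the same animal, and do not say which library ran on which of 2 flow cells. A replicate number below therefore names a library and does not say that both groups share the animal. p-values here therefore measure the spread between these libraries, which can come from handling as well as from the mice.

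Both cell types arise from a common precursor in response to the growth factor FLT3L and display antigen to T cells. cDC1 take up dead cells and present their antigens on MHC class I to CD8 T cells (cross-presentation), and their development needs IRF8, BATF3 and ID2. cDC2 present antigen on MHC class II to CD4 T cells, depend in part on IRF4, and in the spleen include a subset that needs NOTCH2. CD24 and CD172a (encoded by Cd24a and Sirpa) are commonly used to separate the 2 cell types.

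The groups were well separated and the labels matched the marker genes. Gene counts were 23592099 to 30152305 per library in cDC1 and 20696141 to 29351715 in cDC2. Log2 levels of pairs of libraries correlated at 0.93 to 0.95 within cDC1, 0.93 to 0.96 within cDC2 and 0.78 to 0.81 between the groups, as a description of libraries that share a genome annotation and a protocol. The first principal component held 61.9% of the variance and split the groups. Reads outside genes made up 8.23% to 12.4% of counted reads in cDC1 and 12.0% to 18.1% in cDC2. Markers of other cell types were summed by list and compared between the groups by an exact paired permutation test on same-numbered libraries, two-sided and adjusted over 9 lists. The sum of 10 B cell markers was 117 to 161 CPM in cDC1 and 78.6 to 113 CPM in cDC2, higher in cDC1 in 8 of 8 pairs (exact p = 0.00781, the smallest it can give; adjusted 0.0141). Ms4a1, which encodes CD20, and Fcrla made up most of it in cDC1, while Pax5, the factor that defines B cells, was at 0 in every library. The list did not move as a whole: of 5 tested members, 2 were higher in cDC1 and 2 in cDC2. Cd79b, given below with the Fc receptors, stood higher in cDC2. The sum of 10 T cell markers was 3.33 to 14.2 CPM in cDC1 and 13.8 to 29.3 CPM in cDC2, higher in cDC2 in 7 of 8 pairs (exact p = 0.0156, adjusted 0.0201). Cd3e, of the T cell receptor complex, was a small part of it, at medians of 0.06105 and 0.378 CPM. The sum of 10 NK cell markers was 0.936 to 3.17 CPM in cDC1 and 2.01 to 6.72 CPM in cDC2, higher in cDC2 in 8 of 8 pairs (exact p = 0.00781, adjusted 0.0141), with the NK receptor gene Ncr1 at 0 in every cDC1 library and at most 0.438 CPM in cDC2. In the T cell list and in the NK cell list only 1 member each had enough counts to be tested, and it was higher in cDC2. The sum of 11 neutrophil markers was 1.16 to 24.6 CPM in cDC1 and 2.76 to 8.79 CPM in cDC2 (exact p = 0.969, adjusted 0.969), where 1 cDC1 library, of replicate 4, stood apart at 24.6 CPM. The sum of 12 erythroid and platelet markers was 0.571 to 6.89 CPM in cDC1 and 0.580 to 3.68 CPM in cDC2 (exact p = 0.148, adjusted 0.167), again highest in cDC1 of replicate 4. Its red cell gene Hbb-bs was at 0 in every library, which by itself does not show that red cell RNA was absent. The macrophage, monocyte, plasmacytoid DC and plasma cell sums, which also differed, are given beside the cDC2 genes. The part of B, T and NK cells in the differences below was not tested. Since these are bulk samples, fewer cells of a type and less RNA per cell cannot be told apart.

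Levels are gene counts scaled to a common library total (CPM) with the trimmed mean of M values, and all ranges run from the lowest to the highest of 8 libraries. Gene positions are those of the GENCODE mouse annotation on GRCm38, the assembly also known as mm10. A log2 fold change (log2FC) is cDC1 minus cDC2 from edgeR's quasi-likelihood fit with the replicate number as a block, SE is its standard error, and a gene was called where the Benjamini-Hochberg adjusted p over 11357 tested genes was below 0.05. Of these genes, 5977 or 52.6% were called. They comprised 2947 genes higher in cDC1 (25.9%) and 3030 higher in cDC2 (26.7%), and the median log2FC over all tested genes was -0.02. Counts of called members in the gene lists below are to be read beside these shares. A difference of at least 2-fold was found for 980 genes higher in cDC1 (8.63%) and 1379 higher in cDC2 (12.1%), and of at least 8-fold for 247 and 518. Genes whose 8 cDC1 libraries all lay on one side of the 8 cDC2 libraries made up 24.3% of the tested genes. Many genes named below were picked by their calls or values. A lack of overlap therefore describes the named genes and is no further support for their list. The genes at least 2-fold higher in cDC1 supplied 14.9% of all cDC1 counts and 3.85% of cDC2 counts, and those at least 2-fold higher in cDC2 supplied 14.2% of cDC2 counts and 3.94% of cDC1 counts.

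**Figure D1:**
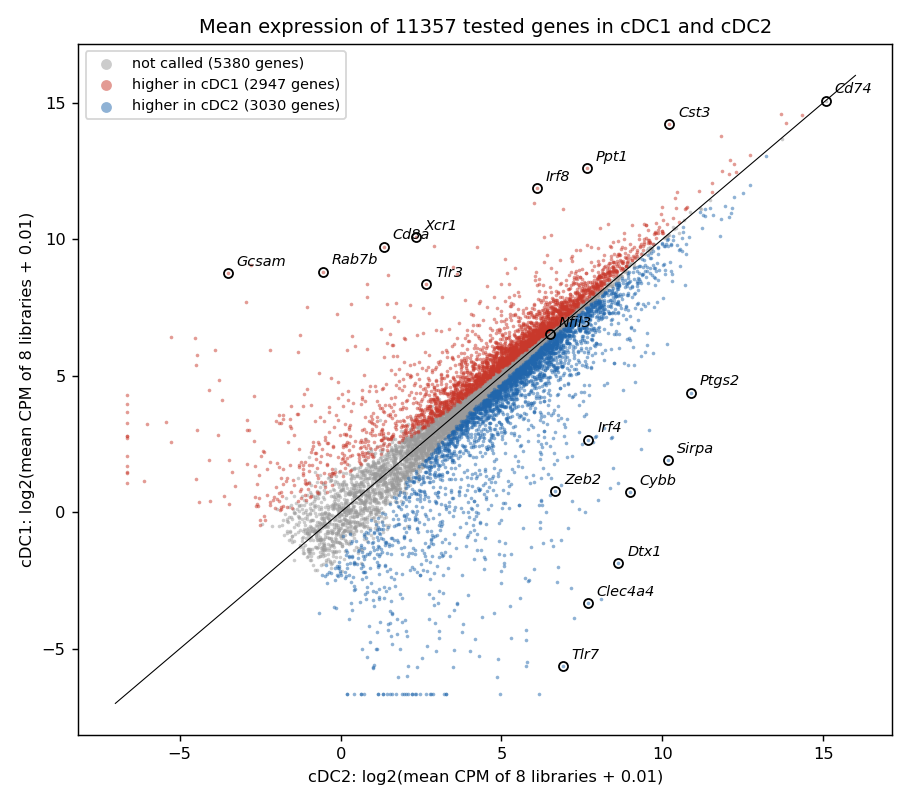
Mean level of each of the 11357 tested genes in cDC2 (horizontal axis) and cDC1 (vertical axis), as log2 of the mean CPM of 8 libraries plus 0.01, with genes called higher in cDC1 in red, higher in cDC2 in blue and not called in grey. Circles mark named genes: Irf8, Ppt1 and Cst3 lie far above the diagonal at high levels, Tlr7, Clec4a4 and Dtx1 far below it, and Cd74 and Nfil3 on it.

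All 27 genes of a list of cDC1 identity were higher in cDC1, 26 of them at least 2-fold. Xcr1 (chromosome 9, 123852315 to 123862029), the receptor for the chemokine XCL1 by which cDC1 meet CD8 T cells, was at 909 to 1292 CPM (median 1086) in cDC1 and 3.51 to 8.44 CPM (median 4.68) in cDC2 (log2FC 7.75, SE 0.20, adjusted p = 7.7e-11). Cd8a, which encodes the CD8 alpha chain carried by splenic cDC1, was at 694 to 948 CPM (median 870.1) in cDC1 and 1.195 to 4.87 CPM (median 1.95) in cDC2 (log2FC 8.47, SE 0.24, adjusted p = 1.88e-10). Clec9a, a receptor for actin exposed on dead cells, was at 208 to 256 CPM (median 229.5) in cDC1 and 5.41 to 12.97 CPM (median 8.84) in cDC2 (log2FC 4.75, SE 0.15, adjusted p = 2.58e-11). Every cDC1 library exceeded every cDC2 library for these genes, and the lowest cDC1 library stood far above the highest cDC2 library.

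As for the remaining genes of the list, Cadm1, an adhesion molecule of cDC1, was at 430.1 to 653 CPM (median 481) in cDC1 and 7.45 to 17.4 CPM (median 9.43) in cDC2 (log2FC 5.53, SE 0.20, adjusted p = 9.34e-10). Itgae, the integrin CD103, was at 25.6 to 114 CPM (median 57.3) in cDC1 and 0 to 1.27 CPM (median 0) in cDC2 (log2FC 8.48, SE 0.74, adjusted p = 2.5e-06), and its level in cDC1 varied more between libraries, relative to its median, than that of Xcr1. The list also held Naaa, a lysosomal amide hydrolase (median 2521 against 59.8 CPM, log2FC 5.37), Ifi205 (log2FC 7.27), Snx22, a sorting nexin (5.61), and Wdfy4, which is needed for cross-presentation of cell-bound antigen (815 to 1600.2 CPM (median 1213) in cDC1 and 291 to 657 CPM (median 447) in cDC2, log2FC 1.42). Cd24a, the sort antigen of cDC1, was at 374 to 495 CPM (median 421) in cDC1 and 8.85 to 15.3 CPM (median 13.1) in cDC2, which the sort itself selects and which is no finding. These genes were listed because they are known for cDC1, so their common direction checks the labels and is not a result. The same holds for the cDC2 list. Several of the gene lists used here share members.

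Some genes were close to exclusive to one of the 2 groups, defined as a mean of at least 10 CPM in one group and below 0.1 CPM in the other. The definition compares cDC1 with cDC2 only. There were 13 such genes in cDC1. For genes near 0 in one group, the fitted log2FC depends on the small prior count that edgeR adds. Gcsam, a germinal centre signalling adaptor gene (chromosome 16, 45610380 to 45622867), was at 403 to 504 CPM (median 418) in cDC1 and 0 to 0.407 CPM (median 0.0181) in cDC2 (log2FC 12.44, SE 0.31, adjusted p = 4.07e-11). Dkk3, a secreted protein of the Dickkopf family, was at 63.2 to 109.8 CPM (median 84.5) in cDC1 and 0 to 0.0479 CPM (median 0) in cDC2, and its 3 counts over all cDC2 libraries gave a ratio of pooled levels of 5723 with a counting interval of 1958 to 27754, at a confidence level of 95%. Cd207, which encodes the lectin langerin, was at 39.8 to 75.8 CPM (median 62.5) in cDC1 and 0 to 0.266 CPM (median 0) in cDC2 (log2FC 9.89, SE 0.39, adjusted p = 1.65e-10). Ptgis, the prostacyclin synthase gene, was at 43.1 to 68.3 CPM (median 55.6) in cDC1 and 0 to 0.239 CPM (median 0) in cDC2 (log2FC 10.63). The lectin gene Clec4b2 was at 26.2 to 57.3 CPM (median 43.8) in cDC1 and 0 to 0.233 CPM (median 0) in cDC2 (log2FC 9.95). These genes were seen in every cDC1 library and were at or near 0 in every cDC2 library, which largely follows from the definition that picked them. Gramd2 and Igf2r had no count in any cDC2 library. Against a floor of 3 counts over the cDC2 group they were at least 1314-fold and at least 1084-fold higher in cDC1, where Gramd2 was at 15.5 to 22.6 CPM (median 19.3) and Igf2r, the receptor that carries lysosomal enzymes, at 5.09 to 27.5 CPM (median 16.1). Other large differences were Fzd1, a Wnt receptor (log2FC 10.69), Rab7b, a late endosomal GTPase (9.42), P3h2 (11.01) and Ctla2b (8.98). Itga1, an integrin gene with 3 counts in cDC2, gave a ratio of pooled levels of 674 with a counting interval of 230.2 to 3269.9.

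In cDC2, 27 genes met the same definition. Sirpb1a, a paired receptor related to the sort antigen CD172a (chromosome 3, 15371653 to 15426520), was at 239 to 312 CPM (median 263) in cDC2 and 0 to 0.361 CPM (median 0.0412) in cDC1 (log2FC -11.29, SE 0.26, adjusted p = 2.52e-12). Its neighbour Sirpb1b had a log2FC of -10.28. Clec4a4, the lectin DCIR2 that marks splenic cDC2 (chromosome 6, 122990367 to 123024105), was at 182 to 227 CPM (median 205) in cDC2 and 0 to 0.715 CPM (median 0) in cDC1 (log2FC -11.28, SE 0.46, adjusted p = 4.02e-09). Clec4a3 was at 124 to 187 CPM (median 155) in cDC2 and 0 to 0.298 CPM (median 0) in cDC1 (log2FC -11.23). Both families hold near-identical copies, so how reads were shared among their members is uncertain. Tlr7, the endosomal sensor of single-stranded RNA (chromosome X, 167304929 to 167330558), was at 91.3 to 145 CPM (median 115) in cDC2 and 0 to 0.0405 CPM (median 0) in cDC1. Its 2 counts over all cDC1 libraries gave a ratio of pooled levels of 12069 with a counting interval of 3341 to 99664. Tlr5, the flagellin receptor, had no count in cDC1 and 22.99 to 43.2 CPM (median 30.2) in cDC2, at least 2091-fold higher. The predicted gene Gm9733 had no count in cDC1 either and was at least 4867-fold higher in cDC2, at 54.01 to 90.4 CPM (median 68.8). Abca9, a lipid transporter gene, was at 31.7 to 70.8 CPM (median 55.3) in cDC2 and 0 to 0.149 CPM (median 0) in cDC1 (log2FC -10.62). Cd300lb, an activating receptor, was at 24.6 to 68.8 CPM (median 37.4) in cDC2 and 0 to 0.0893 CPM (median 0.0168) in cDC1 (log2FC -10.15). All of these genes were present in every cDC2 library, which again largely follows from how they were picked. Some were also expressed in the control plasmacytoid DCs of the series, where Tlr7 was at a median of 387 CPM, Scn3a at 22.6 CPM and Tlr5 at 6.50 CPM. Dscam, an adhesion gene better known from neurons, had 2 counts in cDC1, with a ratio of pooled levels of 5419 with a counting interval of 1499.8 to 44754. Scn3a, a sodium channel gene, had 1 count in cDC1 and 21.3 to 35.6 CPM (median 31.1) in cDC2, and Pram1 had 3 counts in cDC1 and 23.9 to 41.6 CPM (median 28.1) in cDC2. LOC100038947, a predicted gene with 3 counts in cDC1, was at 42.1 to 81.9 CPM (median 51.97) in cDC2.

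Of the 26 genes of a cDC2 identity list, 24 were higher in cDC2, 1 was higher in cDC1 and 1 was not called. Cd4, which part of the splenic cDC2 carry, was at 188 to 274 CPM (median 250.1) in cDC2 and 3.85 to 10.2 CPM (median 6.78) in cDC1 (log2FC -5.16, SE 0.16, adjusted p = 1.53e-11). For Cd4 the highest cDC1 library stayed far below every cDC2 library. Esam, a junction molecule of the NOTCH2-dependent subset, was at 75.2 to 122 CPM (median 92.4) in cDC2 and 8.87 to 16.6 CPM (median 11.3) in cDC1 (log2FC -2.98, SE 0.14, adjusted p = 8.12e-10). Itgam, the integrin CD11b, was at 112 to 183 CPM (median 147) in cDC2 and 0.0373 to 3.21 CPM (median 1.02) in cDC1 (log2FC -7.01). None of these ranges overlapped. The lectin Clec7a, a receptor for fungal glucan (log2FC -5.83), Cd209a (-6.76), Tmem176b (-4.04), the lymphotoxin gene Ltb (-3.76) and S100a4 (-7.61) followed the same direction. The member that went the other way was Clec12a, an inhibitory lectin, at a median of 225 CPM in cDC1 and 68.5 CPM in cDC2 (log2FC 1.56). Ccr2, a chemokine receptor of monocytes and of some cDC2, was at 50.5 to 147 CPM (median 98.9) in cDC1 and 61.1 to 178 CPM (median 131) in cDC2, and its groups overlapped (log2FC -0.31, adjusted p = 0.0585). Sirpa, the sort antigen of cDC2, was at 1017 to 1256 CPM (median 1189) in cDC2 and 0.134 to 8.23 CPM (median 3.91) in cDC1, which again the sort selects.

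The sum of transcripts known from macrophages was also higher in cDC2, mostly through Adgre1. The summed level of 12 macrophage markers was 119 to 200.4 CPM in cDC1 and 453 to 547 CPM in cDC2 (exact p = 0.00781, adjusted 0.0141; higher in cDC2 in 8 of 8 pairs). Of the 9 tested members, 6 were higher in cDC2 and 2 in cDC1. Adgre1, the F4/80 antigen, stood at medians of 3.08 CPM in cDC1 and 349 CPM in cDC2, which is most of the difference in the sum. C1qa, C1qb and C1qc stood at 0.862, 0.961 and 0.934 CPM in cDC1 and 25.3, 30.5 and 19.7 CPM in cDC2. Mertk was at 0 and 0.127 CPM and Marco at 0.464 and 0 CPM. The red pulp macrophage factor Spic was at 7.09 and 14.9 CPM, and Vcam1, which such cells express strongly, was higher in cDC1, at 78.999 and 30.1 CPM. The sum of 13 monocyte markers was 392 to 558 CPM in cDC1 and 543 to 684 CPM in cDC2 (exact p = 0.0156, adjusted 0.0201, higher in cDC2 in 7 of 8 pairs; adjusted p = 0.0603 without replicate 2 or without replicate 4), with Ly6c2 at 5.89 and 1.04 CPM and Vcan at 0. Of the 8 tested members of this list, 3 were higher in cDC1 and 4 in cDC2. Treml4 ran toward cDC1, at 274 and 74.2 CPM, and Ms4a4c toward cDC2, at 6.53 and 358 CPM. The sum of 16 plasmacytoid DC markers was 58.9 to 87.4 CPM in cDC1 and 252 to 271 CPM in cDC2 (exact p = 0.00781, adjusted 0.0141), of which Lair1 made up 11.8 and 193 CPM, while the defining gene Siglech was at 0.494 and 0.316 CPM. Of its 8 tested members, 2 were higher in cDC1, 3 in cDC2 and 3 were not called. The sum of 8 plasma cell markers was 262 to 353 CPM in cDC1 and 360.2 to 574 CPM in cDC2 (exact p = 0.00781, adjusted 0.0141). It holds Xbp1 and Irf4, and Irf4, given below with the transcription factors, differed by more than the sum did. The direction of this sum therefore rests on Irf4. The defining genes Sdc1 and Mzb1 were at 0 and 0 CPM in cDC1 and 0.0556 and 0.348 CPM in cDC2. The 5 tested plasma cell markers split, with 2 higher in cDC1, 2 in cDC2 and 1 not called. The part of such cells in the cDC2 differences was not tested.

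Genes shared by conventional DCs were closer together than the identity genes. Of the 18 listed, 5 were higher in cDC1, 7 were higher in cDC2 and 6 were not called, and 1, the receptor gene Btla, differed at least 2-fold. These counts depend on the processing. With total counts alone 11 were higher in cDC2. A fit of all 28 libraries without the replicate block gave 3 higher in cDC1 and 4 in cDC2, and a test against a 1.5-fold change gave 1 and 3. Zbtb46, the transcription factor that marks the lineage, was at 152 to 246 CPM (median 202) in cDC1 and 145 to 197 CPM (median 155) in cDC2 with overlapping groups (log2FC 0.27, SE 0.07, adjusted p = 0.00348). Its call was lost with replicates 1 to 4 alone (adjusted p = 0.272) and in a fit of all 24 control libraries (0.466). Flt3, the receptor for FLT3L, was at 395 to 497 CPM (median 442) in cDC1 and 269 to 385 CPM (median 318) in cDC2 (log2FC 0.47, SE 0.05, adjusted p = 3.86e-06). Itgax, the integrin CD11c, went the other way, at 305 to 478 CPM (median 432) in cDC1 and 631 to 986 CPM (median 814) in cDC2 (log2FC -0.99, SE 0.06, adjusted p = 3.99e-09), as did Kit (median 356 CPM in cDC1 and 610.1 CPM in cDC2, log2FC -0.83) and Traf1 (median 197 CPM in cDC1 and 333 CPM in cDC2, log2FC -0.76). Cd74, the invariant chain of MHC class II, was at 31239.6 to 36744 CPM (median 34422) in cDC1 and 31031 to 37490.3 CPM (median 34384) in cDC2 (log2FC -0.00, SE 0.03, adjusted p = 0.969), and the groups covered the same range. Btla, which encodes an inhibitory receptor, was at 616 to 814 CPM (median 665) in cDC1 and 71.2 to 109.6 CPM (median 81.1) in cDC2 (log2FC 3.00, SE 0.09, adjusted p = 4.85e-12).

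Among transcription factor genes, 15 of 60 tested members were higher in cDC1, 33 were higher in cDC2 and 12 were not called (median log2FC -0.37). Irf8 (chromosome 8, 120736358 to 120756694) was at 3491 to 3974 CPM (median 3796) in cDC1 and 46.2 to 81.7 CPM (median 70.7) in cDC2 (log2FC 5.81, SE 0.11, adjusted p = 3.66e-13). Irf4 was the reverse, at 1.02 to 9.95 CPM (median 6.92) in cDC1 and 138 to 366 CPM (median 203) in cDC2 (log2FC -5.13, SE 0.25, adjusted p = 1.45e-08), and its cDC2 libraries were spread more widely, relative to their median, than those of Irf8. In the control plasmacytoid DCs of the series, shown without a test, the medians were 6182 CPM for Irf8 and 131 CPM for Irf4. Batf3, the partner of IRF8 in cDC1, differed less than Irf8, at 79.3 to 109.9 CPM (median 91.4) in cDC1 and 45.5 to 54.2 CPM (median 48.7) in cDC2 (log2FC 0.93, SE 0.07, adjusted p = 3.49e-08), although its groups did not overlap. Id2, an inhibitor of E proteins, was at 993 to 1748 CPM (median 1537) in cDC1 and 256 to 374 CPM (median 313) in cDC2 (log2FC 2.24, SE 0.09, adjusted p = 1.23e-10). The cDC1 libraries of Id2 held 1 lower value, in replicate 3. Mycl, a MYC relative expressed in cDC1, was at 712 to 959 CPM (median 822) in cDC1 and 190.1 to 242 CPM (median 221) in cDC2 (log2FC 1.93).

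Zeb2, a zinc finger repressor of the cDC1 fate, was at 78.3 to 116 CPM (median 103) in cDC2 and 0 to 4.701 CPM (median 0.722) in cDC1 (log2FC -6.37, SE 0.70, adjusted p = 1.84e-05), and 2 cDC1 libraries were at 0. Klf4, a factor of some cDC2 subsets, was at 94.8 to 189 CPM (median 128) in cDC2 and 10.01 to 31.3 CPM (median 18.1) in cDC1 (log2FC -2.89, SE 0.12, adjusted p = 1.62e-10). The NF-kappaB genes were higher in cDC2. Relb was at 574 to 742 CPM (median 659) in cDC2 and 125 to 247 CPM (median 168) in cDC1 (log2FC -1.90, SE 0.09, adjusted p = 8.63e-10). Nfkb1 was at 446 to 599 CPM (median 514) in cDC2 and 62.1 to 99.4 CPM (median 77.4) in cDC1 (log2FC -2.70). Rel, Rela and Nfkb2 had log2FC values of -1.29, -0.31 and -0.57. Rela alone of these 5 overlapped between the groups. The ETS factor Spib (log2FC -4.66), Bhlhe40 (-2.26), Tbx21, which encodes T-bet (-4.56), Cebpb (-2.97) and Prdm1, the repressor BLIMP-1 (-3.67), were also higher in cDC2. Rxra, a nuclear receptor gene, was higher in cDC1 (2.49), as were Irf5 (0.75) and the Notch effector Rbpj (0.63). Bcl6, a repressor needed by cDC1, was at 95.9 to 137 CPM (median 123) in cDC1 and 110.3 to 200.1 CPM (median 153) in cDC2 with overlapping groups (log2FC -0.34, SE 0.10, adjusted p = 0.00865; adjusted p = 0.113 with replicates 1 to 4 alone). Nfil3, which acts early in cDC1 development, was at 45.2 to 163 CPM (median 87.8) in cDC1 and 52.9 to 132 CPM (median 92.2) in cDC2 and was not called (log2FC -0.01, SE 0.07, adjusted p = 0.937). Klf2 and Etv3 were not called either (log2FC -0.28, adjusted p = 0.0648, and log2FC -0.28, adjusted p = 0.0549), and their groups overlapped.

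**Figure D2:**
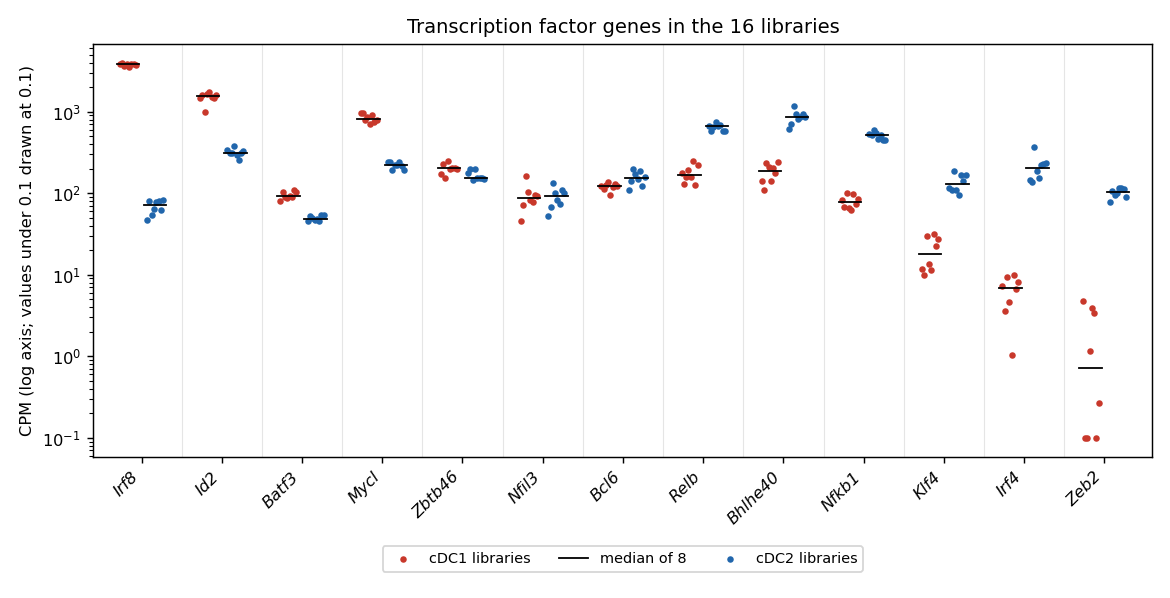
CPM of 13 transcription factor genes (log axis, values under 0.1 drawn at 0.1) in each of the 8 cDC1 (red) and 8 cDC2 (blue) libraries, with the median as a bar. Irf8, Id2, Batf3 and Mycl lie higher in every cDC1 library, Relb, Bhlhe40, Nfkb1, Klf4, Irf4 and Zeb2 in every cDC2 library, and Zbtb46, Nfil3 and Bcl6 overlap.

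IRF8 and IRF4 bind DNA at elements they share with other interferon regulatory factors, so the promoters were searched for such letters. Windows from 250 bases before to 50 bases after a start site were taken from RefSeq (GRCm38.p6), and 8750 of the 11357 tested genes matched one by symbol. The interferon-stimulated response element, spelled GAAANNGAAA and read on both strands, was in 76 of 1348 windows (5.64%) of genes at least 2-fold higher in cDC2. It was in 26 of 948 (2.74%) of those at least 2-fold higher in cDC1, in 142 of 5201 (2.73%) of genes not called, in 3.44% of all windows and in 3.35% of those of tested genes. Of 24 windows of listed interferon-stimulated genes 11 held it, and without that list the share in cDC2 genes was 69 of 1333 (5.18%). The composite of an ETS and an IRF site, spelled GGAANNGAAA, was in 2.11% of windows of cDC1 genes and 2.74% of cDC2 genes, against 2.72% of all windows, 2.46% of windows of tested genes and 2.21% of genes not called. An AP-1 site, TGANTCA, was in 6.22% and 6.90%, against 7.81% of all windows, 4.88% of windows of tested genes and 4.35% of those of genes not called. A kappaB site, GGGNNTTTCC, was in 1.90% and 2.08%, against 1.63% of all windows, 1.75% of tested genes and 1.63% of genes not called. The composite and the response element can overlap by letters. No test was run on these shares, and a match is not a binding site.

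The 250 bases before the start site are printed for 6 genes that show both sides of this: 3 genes higher in cDC2 with the response element, 1 gene higher in cDC1 with it, 1 gene with it that was not called, and 1 gene higher in cDC1 with the composite. Letters run 5′ to 3′ on the strand of the gene, and capitals mark a match to either motif. Oas1a (chr5:120907526-120907775, minus strand) has a doubled element that begins 20 and 14 bases before the start. Cybb (chrX:9469325-9469574, minus strand) has 3 elements, beginning 168, 124 and 29 bases before the start. Ctss (chr3:95526536-95526785, plus strand) has 1 element that begins 21 bases before the start, and Tlr11 (chr14:50357664-50357913, plus strand) 1 that begins 122 bases before it. Bst2 (chr8:71537473-71537722, minus strand) has a doubled element from 130 and 124 bases before the start, and Cd8a (chr6:71373177-71373426, plus strand) has composites that begin 158 and 136 bases before it.
Oas1a: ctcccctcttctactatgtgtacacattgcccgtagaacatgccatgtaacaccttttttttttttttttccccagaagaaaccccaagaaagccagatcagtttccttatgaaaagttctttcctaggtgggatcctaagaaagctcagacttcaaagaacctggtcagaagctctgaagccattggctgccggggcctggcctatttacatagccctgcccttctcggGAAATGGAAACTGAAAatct
Cybb: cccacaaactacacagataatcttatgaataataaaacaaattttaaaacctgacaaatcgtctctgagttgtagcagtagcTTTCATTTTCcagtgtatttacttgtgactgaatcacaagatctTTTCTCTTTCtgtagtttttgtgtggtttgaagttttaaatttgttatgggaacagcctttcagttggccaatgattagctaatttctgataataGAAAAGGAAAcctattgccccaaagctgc
Ctss: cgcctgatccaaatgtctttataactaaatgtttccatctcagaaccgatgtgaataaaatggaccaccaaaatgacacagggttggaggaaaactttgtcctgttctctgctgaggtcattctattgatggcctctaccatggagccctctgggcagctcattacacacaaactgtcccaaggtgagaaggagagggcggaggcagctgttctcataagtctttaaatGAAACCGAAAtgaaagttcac
Tlr11: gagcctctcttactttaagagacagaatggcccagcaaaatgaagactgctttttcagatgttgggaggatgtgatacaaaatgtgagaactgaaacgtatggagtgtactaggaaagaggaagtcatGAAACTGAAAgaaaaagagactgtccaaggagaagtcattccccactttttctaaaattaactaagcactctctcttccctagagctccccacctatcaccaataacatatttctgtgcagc
Bst2: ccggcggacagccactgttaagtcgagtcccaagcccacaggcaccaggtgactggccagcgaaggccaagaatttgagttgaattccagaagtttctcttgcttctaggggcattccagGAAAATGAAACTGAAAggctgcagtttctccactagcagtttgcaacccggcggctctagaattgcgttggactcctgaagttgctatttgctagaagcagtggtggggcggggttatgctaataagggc
Cd8a: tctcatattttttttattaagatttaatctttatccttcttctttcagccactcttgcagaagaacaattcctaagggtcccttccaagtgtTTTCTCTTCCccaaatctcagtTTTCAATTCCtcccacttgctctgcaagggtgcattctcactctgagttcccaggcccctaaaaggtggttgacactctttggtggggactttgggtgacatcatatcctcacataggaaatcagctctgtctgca

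Toll-like receptors split by cell type. With their adaptors, 8 of 27 tested members were higher in cDC1, 14 were higher in cDC2 and 5 were not called (median log2FC -0.29). Tlr3, the endosomal sensor of double-stranded RNA, was at 262 to 394 CPM (median 325) in cDC1 and 3.02 to 9.52 CPM (median 6.63) in cDC2 (log2FC 5.71, SE 0.22, adjusted p = 1.37e-09). Tlr11, whose promoter is shown above and whose product senses profilin of protozoa, was at 352 to 540.2 CPM (median 427) in cDC1 and 29.01 to 44.8 CPM (median 34.7) in cDC2 (log2FC 3.60, SE 0.12, adjusted p = 2.48e-11), and its partner Tlr12 had a log2FC of 5.55. Against these stood Tlr7, Tlr5 and Tlr8. Tlr8 had no count in cDC1 and was at least 470-fold higher in cDC2, at a median of 7.16 CPM. Tlr1, a lipopeptide receptor, was at 149 to 193 CPM (median 177) in cDC2 and 2.89 to 10.9 CPM (median 7.84) in cDC1 (log2FC -4.55, SE 0.18, adjusted p = 3.5e-10), and its partners Tlr2 and Tlr6 had log2FC values of -1.19 and -1.26. The ranges of these members did not overlap apart from Tlr6. Tlr9, the DNA sensor, was low in both, at 0.938 to 3.41 CPM (median 2.19) in cDC1 and 1.38 to 6.92 CPM (median 3.998) in cDC2, and was not called (log2FC -0.79, SE 0.36, adjusted p = 0.0784). Tlr13, a sensor of bacterial RNA, was at 183 and 203 CPM (log2FC -0.21). Unc93b1, which carries the endosomal receptors from the endoplasmic reticulum, was at 1039 to 1252 CPM (median 1143) in cDC1 and 1067 to 1351 CPM (median 1139) in cDC2 and not called (log2FC -0.01, adjusted p = 0.817). The adaptor Ticam2 was higher in cDC2 (log2FC -4.52) and Ticam1, which acts downstream of TLR3, higher in cDC1 (0.70). In control plasmacytoid DCs the median of Tlr7 was 387 CPM.

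Genes of cytosolic sensing and the inflammasome were higher in cDC2 or not called, with 1 exception: 1 of 23 tested members was higher in cDC1, 14 were higher in cDC2 and 8 were not called (median log2FC -0.86; 2 further listed genes had too few counts to be tested). The exception was Nlrc5, a transactivator of MHC class I genes (log2FC 0.91). The RNA sensor RIG-I, Ddx58, stood at a median of 1.04 CPM in cDC1 and 68.6 CPM in cDC2 (log2FC -6.03). Ifih1, which encodes the sensor MDA5, had a log2FC of -1.92. Tmem173, the adaptor STING, was at 173 to 212 CPM (median 196) in cDC2 and 53.1 to 80.97 CPM (median 64.7) in cDC1 (log2FC -1.60, SE 0.07, adjusted p = 1.47e-10). The peptidoglycan sensor Nod1 was at 141 to 214 CPM (median 189) in cDC2 and 33.7 to 61.3 CPM (median 40.3) in cDC1 (log2FC -2.12). The caspase Casp1 was at 55.9 to 83.3 CPM (median 74.998) in cDC2 and 21.9 to 26.7 CPM (median 23.5) in cDC1 (log2FC -1.58). Nlrp3 was at medians of 13.2 and 61.01 CPM (log2FC -2.11). Pycard, the inflammasome adaptor ASC, and Gsdmd, the pore-forming gasdermin, were not called (log2FC 0.02, adjusted p = 0.858; log2FC -0.13, adjusted p = 0.255). So were Mb21d1, the DNA sensor cGAS (0.28), and Aim2 (-0.20).

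Interferon-stimulated genes encode antiviral effectors. Among them 4 of 27 tested members were higher in cDC1, 20 were higher in cDC2 and 3 were not called (median log2FC -1.59; 1 further listed gene had too few counts to be tested), in mice without treatment. Oas1a, an oligoadenylate synthetase whose promoter is shown above, was at 51.7 to 129 CPM (median 95.6) in cDC2 and 2.02 to 9.86 CPM (median 4.91) in cDC1 (log2FC -4.19, SE 0.19, adjusted p = 3.42e-10). Ifitm3, which blocks virus entry, was at 402 to 598 CPM (median 484) in cDC2 and 64.2 to 103 CPM (median 80.7) in cDC1 (log2FC -2.57, SE 0.07, adjusted p = 1.77e-12). The deconjugase Usp18 was at 147 to 211 CPM (median 169) in cDC2 and 48.4 to 79.6 CPM (median 61.3) in cDC1 (log2FC -1.53). Ifi27l2a was at 51.9 to 152 CPM (median 113) in cDC2 and 7.99 to 26.5 CPM (median 14.5) in cDC1 (log2FC -2.89). Rtp4 (log2FC -7.75), Oas2 (-6.80), Ifit3 (-5.33), Oasl2 (-4.73), Ifit1 (-4.37) and Rsad2, the antiviral protein viperin (-3.25), were also higher in cDC2. Mx1, a GTPase (median 8.33 CPM in cDC1 and 2.24 CPM in cDC2, log2FC 1.82), Trim30a (0.79), Ifi35 (0.53) and Ifi44 (0.73) were higher in cDC1. Bst2, whose promoter holds the response element, was at 28.7 to 43.6 CPM (median 34.4) in cDC1 and 21.95 to 34.6 CPM (median 31.8) in cDC2 and not called (log2FC 0.21, adjusted p = 0.0974). The receptor gene Ifnar1 was at 74.2 to 101 CPM (median 84.3) in cDC1 and 81.3 to 105 CPM (median 95.4) in cDC2 (log2FC -0.13, adjusted p = 0.185), and Ifnar2 was higher in cDC2 (log2FC -0.80).

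Genes of MHC class I loading and cross-presentation lay mostly toward cDC1: 18 of 28 tested members were higher in cDC1, 4 were higher in cDC2 and 6 were not called (median log2FC 0.88). They included both subunits of the peptide transporter, Tap1 (log2FC 1.31) and Tap2 (1.12), the immunoproteasome subunits Psmb8 (1.02) and Psmb9 (1.33), and the proteasome activators Psme1 (1.08) and Psme2 (0.85). Pdia3, a disulfide isomerase of the loading complex, was at 1352 to 1674 CPM (median 1412) in cDC1 and 480.3 to 591 CPM (median 540.3) in cDC2 (log2FC 1.44, SE 0.05, adjusted p = 6.56e-11). Calr, the chaperone calreticulin, was at 1329 to 1604 CPM (median 1504) in cDC1 and 632 to 802 CPM (median 715) in cDC2 (log2FC 1.05, SE 0.04, adjusted p = 6.2e-11). Rab43, a GTPase of cross-presentation, was at 835 to 1091 CPM (median 928) in cDC1 and 299 to 444 CPM (median 356) in cDC2 (log2FC 1.41). The class I chains did not follow. H2-K1 was at medians of 1867 and 2474 CPM (log2FC -0.36) and B2m, the light chain, at 3027 and 4728 CPM (-0.65), both higher in cDC2. H2-D1 was at 1565 to 1822 CPM (median 1628) in cDC1 and 1453 to 1746 CPM (median 1627) in cDC2 and was not called (log2FC 0.05, adjusted p = 0.377). Psmb10, the third immunoproteasome subunit, was not called either (log2FC 0.03, adjusted p = 0.71). Reads of the H2 genes can be shared among near-identical copies.

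MHC class II genes differed in both directions. In that list 3 of 17 tested members were higher in cDC1, 9 were higher in cDC2 and 5 were not called (median log2FC -0.17). H2-Aa was at 11884 to 14315 CPM (median 12871) in cDC1 and 12639.7 to 15608 CPM (median 13169) in cDC2, with overlapping groups (log2FC -0.06, SE 0.03, adjusted p = 0.0618); it was called higher in cDC2 with total counts alone (adjusted p = 0.000506) and with DESeq2's size factors (0.0390). H2-Ab1 and H2-Eb1 differed by log2FC values of 0.22 and -0.17. Larger differences toward cDC2 were found for H2-DMb2, a chain of the peptide editor H2-M, at 466 to 549 CPM (median 488) in cDC2 and 62.7 to 99.04 CPM (median 82.1) in cDC1 (log2FC -2.61, SE 0.07, adjusted p = 1.86e-12), whereas the other chain gene of that kind, H2-DMb1, was higher in cDC1 (median 673 CPM in cDC1 and 381 CPM in cDC2, log2FC 0.84). H2-Eb2 was at 115 to 186 CPM (median 147) in cDC2 and 13.4 to 24.6 CPM (median 18.3) in cDC1 (log2FC -2.99). H2-Oa, part of the inhibitor of H2-M, was at medians of 333 and 597 CPM (log2FC -0.81). Ctss, the protease that cuts the invariant chain, was at 1555 to 1910.3 CPM (median 1692) in cDC2 and 632 to 762 CPM (median 697) in cDC1 (log2FC -1.27, SE 0.04, adjusted p = 5.66e-12). Ifi30, a lysosomal thiol reductase, was at 569.7 to 648 CPM (median 598) in cDC2 and 260.3 to 325 CPM (median 281) in cDC1 (log2FC -1.09). The transactivator Ciita was not called (log2FC -0.14).

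The NADPH oxidase of phagocytes makes superoxide in phagosomes, and its genes lay toward cDC2. Of its 8 listed genes, 6 were higher in cDC2, 1 was higher in cDC1 and 1 was not called. Cybb, the catalytic subunit gp91phox (chromosome X, 9435252 to 9487771), was at 455 to 637 CPM (median 492) in cDC2 and 0.804 to 3.89 CPM (median 1.49) in cDC1 (log2FC -8.32, SE 0.24, adjusted p = 1.59e-10). Rac2, the GTPase that activates the complex, was at 408 to 543 CPM (median 455) in cDC2 and 167 to 213 CPM (median 187) in cDC1 (log2FC -1.30). Hvcn1, the proton channel that balances its charge, was at 64.8 to 93.3 CPM (median 77.5) in cDC2 and 1.88 to 7.73 CPM (median 5.49) in cDC1 (log2FC -3.91). No range of these overlapped. Cyba, the membrane partner of Cybb, differed less, at medians of 697 and 943 CPM (log2FC -0.42), as did Ncf1 (-0.39), and Ncf4 was slightly higher in cDC1 (0.29). Rac1, which many cells express, was at 674 to 901 CPM (median 729) in cDC1 and 717 to 798 CPM (median 769) in cDC2 and not called (log2FC -0.03, adjusted p = 0.613). The median of Cybb in control plasmacytoid DCs was 1129.8 CPM.

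**Figure D3:**
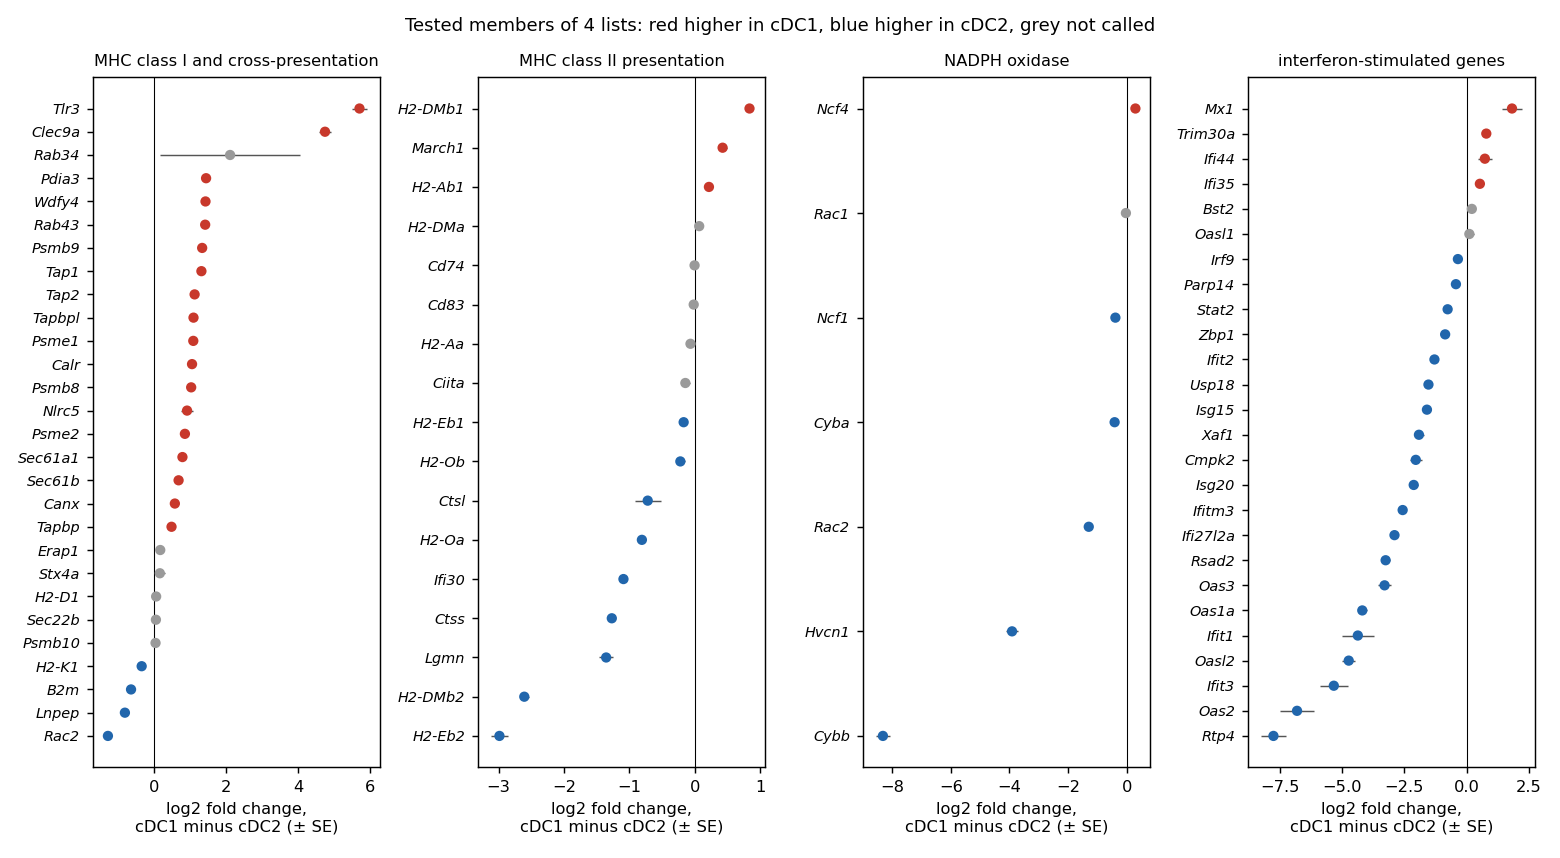
log2FC (cDC1 minus cDC2, horizontal axis, with SE bars) of tested members of the lists of MHC class I and cross-presentation, MHC class II presentation, NADPH oxidase and interferon-stimulated genes, red for genes called higher in cDC1, blue for higher in cDC2 and grey for not called. Members of the first list lie mostly to the right of 0, and those of the oxidase and interferon-stimulated lists mostly to the left.

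Lysosomal genes differed in both directions: 10 of 28 tested members were higher in cDC1, 16 were higher in cDC2 and 2 were not called (median log2FC -0.60). Ppt1, a thioesterase that removes palmitate from proteins, was at 5259 to 6848 CPM (median 6516) in cDC1 and 168 to 232 CPM (median 197) in cDC2 (log2FC 4.96, SE 0.05, adjusted p = 5.81e-17). Cst3, the protease inhibitor cystatin C (chromosome 2, 148871722 to 148875692), was at 16407 to 22169 CPM (median 19041) in cDC1 and 1019 to 1368 CPM (median 1189) in cDC2 (log2FC 3.99, SE 0.05, adjusted p = 7.9e-16). Neither gene overlapped between the groups. Psap, the prosaposin gene (log2FC 1.96), and Mpeg1, the pore-forming perforin-2 (4.22), were higher in cDC1 as well. Cathepsin genes higher in cDC2 were Ctss, given above, Ctsa, at 494 to 589.5 CPM (median 551) in cDC2 and 88.3 to 119.6 CPM (median 96.7) in cDC1 (log2FC -2.45, SE 0.06, adjusted p = 7.21e-13), Ctsd (log2FC -2.30), Ctsc (-1.80), Ctsh (-0.96), Ctsz (-0.83), Ctsl (-0.72) and Ctsb (-0.13), and the legumain gene Lgmn was higher there too (-1.35). Ctse was the listed cathepsin that went the other way (3.53). The lysozyme genes Lyz1 (-2.17) and Lyz2 (-2.33), near-identical copies, were higher in cDC2. Among Rab GTPases and trafficking genes, 15 of 32 tested members were higher in cDC1, 6 were higher in cDC2 and 11 were not called (median log2FC 0.23; 2 further listed genes had too few counts to be tested). Rab7b was at 371 to 507 CPM (median 451) in cDC1 and 0 to 1.34 CPM (median 0.632) in cDC2 (log2FC 9.42, SE 0.27, adjusted p = 1.62e-10). Rab32, a GTPase of lysosome-related organelles, was at 636 to 889 CPM (median 783) in cDC1 and 154 to 186 CPM (median 173) in cDC2 (log2FC 2.17). Rab11a, a recycling endosome GTPase, was at 285 to 379 CPM (median 328) in cDC1 and 128 to 175 CPM (median 150.5) in cDC2 (log2FC 1.14). The lowest cDC1 library of each of these 3 genes exceeded the highest cDC2 library. Rab5a, of early endosomes, was at 103 to 128 CPM (median 113) in cDC1 and 93.8 to 121 CPM (median 103) in cDC2 and not called (log2FC 0.12, adjusted p = 0.106).

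Uptake receptors differed in both directions. Among C-type lectin and Siglec genes, 6 of 29 tested members were higher in cDC1, 16 were higher in cDC2 and 7 were not called (median log2FC -1.90; 5 further listed genes had too few counts to be tested). Besides Clec9a, Cd207 and Clec4b2, the endocytic receptor DEC-205, Ly75, was higher in cDC1 (median 149 CPM in cDC1 and 17.3 CPM in cDC2, log2FC 3.14). Clec4a1 was at 116 to 160.1 CPM (median 144) in cDC2 and 0 to 0.321 CPM (median 0.117) in cDC1 (log2FC -10.01). Siglecg, an inhibitory receptor, was at 84.5 to 119.7 CPM (median 111) in cDC2 and 8.98 to 11.9 CPM (median 10.6) in cDC1 (log2FC -3.35). Clec10a and Mgl2, receptors for galactose-type sugars, had log2FC values of -8.34 and -8.43. Among Fc and complement receptors, 2 of 13 tested members were higher in cDC1, 8 were higher in cDC2 and 3 were not called (median log2FC -0.99; 5 further listed genes had too few counts to be tested). The shared signalling chain Fcer1g was at 494 to 702 CPM (median 540.2) in cDC2 and 16.4 to 37.7 CPM (median 30.4) in cDC1 (log2FC -4.39, SE 0.13, adjusted p = 1.33e-11), and the activating receptors Fcgr3 (-5.30), Fcgr4 (-2.41) and Fcgr1 (-6.46) were higher in cDC2. The inhibitory receptor Fcgr2b was at 59.2 to 77.7 CPM (median 65.99) in cDC1 and 46.5 to 84.7 CPM (median 68.6) in cDC2 and not called (log2FC -0.03, SE 0.09, adjusted p = 0.815). Fcgrt, the neonatal Fc receptor, was higher in cDC1, at 169 to 251 CPM (median 211) in cDC1 and 81.8 to 103 CPM (median 88.7) in cDC2 (log2FC 1.20). Fcrla, also a B cell gene, was at 51.03 to 82.2 CPM (median 68.97) in cDC1 and 0.307 to 2.56 CPM (median 1.23) in cDC2 (log2FC 5.78), beside which the B cell markers Ms4a1 and Cd79b stood at medians of 68.7 and 2.84 CPM in cDC1 and 33.8 and 41.5 CPM in cDC2, and Pax5 at 0.

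Of the dead cell uptake and scavenger genes, 4 of 19 tested members were higher in cDC1, 12 were higher in cDC2 and 3 were not called (median log2FC -2.25; 7 further listed genes had too few counts to be tested). Cd36, a receptor for lipids and dead cells, was at 782 to 973 CPM (median 853) in cDC1 and 2.82 to 16.5 CPM (median 7.09) in cDC2 (log2FC 6.99, SE 0.27, adjusted p = 2.61e-09). Axl, a receptor tyrosine kinase that binds dead cells through GAS6, was at 27.5 to 72.1 CPM (median 39.2) in cDC2 and 3.05 to 6.07 CPM (median 3.87) in cDC1 (log2FC -3.32, SE 0.18, adjusted p = 2.68e-09). Cd300lf, a phosphatidylserine receptor, was at 70.9 to 113 CPM (median 80.96) in cDC2 and 1.06 to 4.69 CPM (median 2.58) in cDC1 (log2FC -5.13). Cd300a, an inhibitory relative, was at 456 to 566 CPM (median 531) in cDC2 and 69.7 to 137 CPM (median 112) in cDC1 (log2FC -2.30). The libraries of both groups were apart for these 4 genes. The scavenger receptor genes Lrp1 (log2FC -5.69) and Msr1 (-8.01) and the integrin gene Itgb3 (-8.30) were higher in cDC2. Scarb1 (0.96) and Scarb2 (0.97) were higher in cDC1. Mfge8, a bridging protein, was at 6.45 to 20.6 CPM (median 10.5) in cDC1 and 8.81 to 21.02 CPM (median 13.3) in cDC2 and not called (log2FC -0.39, adjusted p = 0.175).

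Costimulatory genes did not move as a block: 8 of 22 tested members were higher in cDC1, 10 were higher in cDC2 and 4 were not called (median log2FC -0.25). A further listed gene had too few counts to be tested. Beside this, 25.9% of all tested genes were higher in cDC1 and 26.7% in cDC2. Cd86, a ligand of CD28, was at 527 to 674 CPM (median 595) in cDC1 and 100.2 to 126 CPM (median 111) in cDC2 (log2FC 2.41, SE 0.05, adjusted p = 3.35e-13), while Cd80, the other such ligand, was higher in cDC2 (median 18.3 CPM in cDC1 and 30.6 CPM in cDC2, log2FC -0.75). The inhibitory ligands Cd274, PD-L1 (log2FC -1.87), and Pdcd1lg2, PD-L2 (-4.01), were higher in cDC2. No library of one group reached the other for these ligands. Havcr2, the receptor TIM-3, was at 265 to 344 CPM (median 318) in cDC1 and 150.4 to 228 CPM (median 192) in cDC2 (log2FC 0.76, SE 0.07, adjusted p = 3.3e-07). Ctla4, best known from T cells, was low in cDC1 and near 0 in cDC2, at 4.68 to 13.9 CPM (median 6.66) in cDC1 and 0 to 0.282 CPM (median 0) in cDC2 (log2FC 8.36, SE 0.79, adjusted p = 7.48e-07), with Cd3e as given above. Cd40, which receives the CD40 ligand signal, was at 117 to 179 CPM (median 150.3) in cDC1 and 109.99 to 152 CPM (median 130.5) in cDC2 and not called (log2FC 0.15, adjusted p = 0.151). Cd48 was at 245 to 386 CPM (median 317) in cDC1 and 315 to 458 CPM (median 338) in cDC2 and not called either (log2FC -0.16, adjusted p = 0.0527).

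Among cytokine genes, 4 of 25 tested members were higher in cDC1, 12 were higher in cDC2 and 9 were not called (median log2FC -0.42; 7 further listed genes had too few counts to be tested). Il12b, which encodes the p40 chain of IL-12 and IL-23, was at 71.5 to 138 CPM (median 98.9) in cDC1 and 2.68 to 15.6 CPM (median 7.63) in cDC2 (log2FC 3.90, SE 0.21, adjusted p = 4.66e-09), and Il15 was higher in cDC1 too (log2FC 1.69). Il1b was at 2278 to 4905 CPM (median 3317) in cDC2 and 733 to 1687 CPM (median 1017) in cDC1 (log2FC -1.68, SE 0.05, adjusted p = 5.13e-12), with no overlap despite its wide spread in each group, and its antagonist Il1rn had a log2FC of -6.97. Vegfa, the vascular growth factor, was at 24.4 to 112 CPM (median 78.1) in cDC2 and 0.0373 to 2.61 CPM (median 1.03) in cDC1 (log2FC -6.21, SE 0.31, adjusted p = 2.74e-09). Ltb was at 476 to 653 CPM (median 553) in cDC2 and 31.5 to 65.2 CPM (median 37.7) in cDC1 (log2FC -3.76). Tnf, Il6 and Il27 were not called (log2FC -0.05, -0.08 and 0.02). Ebi3 was at 42.04 to 51.2 CPM (median 44.6) in cDC1 and 43.9 to 64.4 CPM (median 48.4) in cDC2 and not called either (log2FC -0.15, adjusted p = 0.208). For chemokines, 6 of 14 tested members were higher in cDC1, 5 were higher in cDC2 and 3 were not called (median log2FC 0.46; 3 further listed genes had too few counts to be tested). Cxcl9, which draws activated T cells through CXCR3, was at 254 to 405 CPM (median 312) in cDC1 and 12.6 to 34.995 CPM (median 22.4) in cDC2 (log2FC 3.81, SE 0.17, adjusted p = 1.8e-09). Cxcl16 (1.11) and Ccl22 (1.99) were higher in cDC1 as well. Ccl5 was at 135 to 244 CPM (median 194) in cDC2 and 9.605 to 39.8 CPM (median 20.05) in cDC1 (log2FC -3.24, SE 0.16, adjusted p = 1.41e-09). Ccl9 was at 70.6 to 249.8 CPM (median 149.6) in cDC2 and 2.43 to 7.37 CPM (median 3.53) in cDC1 (log2FC -5.14). Ccl3 was at 82.7 to 152 CPM (median 111) in cDC2 and 13.5 to 41.98 CPM (median 19.8) in cDC1 (log2FC -2.34). The 3 genes did not overlap between the groups, though their cDC2 libraries ranged widely. The lipid mediator gene Ptgs2, the inducible cyclooxygenase (chromosome 1, 150100031 to 150108227), was at 1056 to 2412 CPM (median 1972) in cDC2 and 8.02 to 37.7 CPM (median 20.8) in cDC1 (log2FC -6.59, SE 0.24, adjusted p = 1.63e-09).

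**Figure D4:**
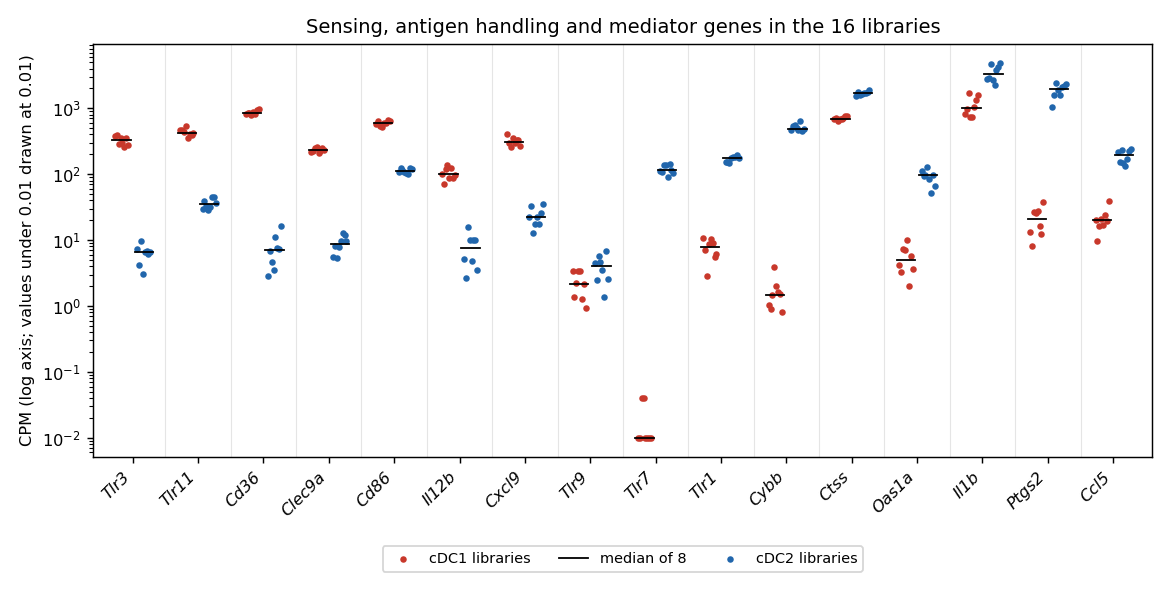
CPM of 16 genes of sensing, antigen handling and mediators (log axis, values under 0.01 drawn at 0.01) in each of the 8 cDC1 (red) and 8 cDC2 (blue) libraries, with the median as a bar. Tlr3, Tlr11, Cd36, Clec9a, Cd86, Il12b and Cxcl9 are higher in every cDC1 library, Tlr9 overlaps, and the remaining genes are higher in every cDC2 library.

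Chemokine and migration receptors differed by member: 7 of 23 tested members were higher in cDC1, 11 were higher in cDC2 and 5 were not called (median log2FC -0.37). Another 7 listed genes had too few counts to be tested. The shares among all tested genes were 25.9% for cDC1 and 26.7% for cDC2. P2ry14, a receptor for UDP-sugars, was at 215 to 253 CPM (median 242) in cDC1 and 0.789 to 2.88 CPM (median 1.99) in cDC2 (log2FC 7.12, SE 0.18, adjusted p = 3.28e-12). Cxcr3, the receptor for CXCL9, was at 86.3 to 123 CPM (median 88.1) in cDC1 and 3.68 to 9.14 CPM (median 5.67) in cDC2 (log2FC 4.05, SE 0.14, adjusted p = 2.91e-11). For both genes the cDC2 libraries stayed far below the cDC1 libraries. Ccr9, a gut homing receptor, was higher in cDC1 (median 43.8 CPM in cDC1 and 7.05 CPM in cDC2, log2FC 2.56). Gpr183, the oxysterol receptor EBI2 that places cDC2 in the bridging channels of the spleen, was at 376 to 597 CPM (median 480.3) in cDC2 and 17.2 to 65.8 CPM (median 37.3) in cDC1 (log2FC -3.63, SE 0.18, adjusted p = 1.27e-08). Cx3cr1 (-7.64), Ccr6 (-7.48) and Ltb4r1, a leukotriene receptor (-5.10), were higher in cDC2, and Ccr7, which guides DCs to T cell zones, differed little (median 1269.6 CPM in cDC1 and 1503 CPM in cDC2, log2FC -0.37). Of the integrin and adhesion genes, 15 of 31 tested members were higher in cDC1, 15 were higher in cDC2 and 1 was not called (median log2FC -0.14; 3 further listed genes had too few counts to be tested). Cd81, a tetraspanin, was at 777 to 977 CPM (median 911) in cDC1 and 153 to 233 CPM (median 206) in cDC2 (log2FC 2.16, SE 0.05, adjusted p = 1.48e-12). Itga8 was at medians of 73.2 and 2.72 CPM (log2FC 4.76). The libraries of both groups were apart for these genes. Itgb2, the beta chain of CD11b and CD11c, was higher in cDC2 (-0.72), as was F11r, a junction protein (-2.07). Cd82 was at 302 to 365 CPM (median 327) in cDC1 and 331 to 431 CPM (median 355) in cDC2 and not called (log2FC -0.14, adjusted p = 0.0814).

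Receptors for growth factors and cytokines were mostly higher in cDC2: 5 of 34 tested members were higher in cDC1, 24 were higher in cDC2 and 5 were not called (median log2FC -0.66; 3 further listed genes had too few counts to be tested). Csf1r, the receptor for the macrophage growth factor M-CSF, was at 301 to 531 CPM (median 456) in cDC2 and 4.395 to 15.2 CPM (median 9.82) in cDC1 (log2FC -5.57, SE 0.20, adjusted p = 1.01e-09), with the macrophage markers as given above. Csf3r, the receptor for G-CSF, was at 14.2 to 32.4 CPM (median 20.4) in cDC2 and 0.0336 to 1.01 CPM (median 0.251) in cDC1 (log2FC -6.33). Il2rg, the common gamma chain, was at 500.4 to 599.7 CPM (median 548) in cDC2 and 51.7 to 81.8 CPM (median 63.003) in cDC1 (log2FC -3.07, SE 0.09, adjusted p = 4.31e-12). Il17ra was at 238 to 280.4 CPM (median 262) in cDC2 and 79.5 to 121 CPM (median 96.5) in cDC1 (log2FC -1.41). Il21r was at medians of 59.4 and 281 CPM (log2FC -2.30). These receptors, picked partly by their calls, did not overlap between the groups, which held for 17 of the 34 tested members. Ifngr1 (0.46) and Csf2ra, a GM-CSF receptor chain (0.35), were higher in cDC1. Il10ra was at 373 to 683 CPM (median 475) in cDC1 and 401 to 645 CPM (median 577) in cDC2 and not called (log2FC -0.17, adjusted p = 0.0945).

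The Notch pathway included 8 genes higher in cDC1, 10 higher in cDC2 and 6 not called of 24 tested, and 5 further listed genes were not tested. Over all tested genes the shares were 25.9% higher in cDC1 and 26.7% higher in cDC2. Dtx1, a Deltex gene that Notch activates (chromosome 5, 120680202 to 120711927), was at 262 to 521 CPM (median 404) in cDC2 and 0 to 0.842 CPM (median 0.134) in cDC1 (log2FC -10.53, SE 0.38, adjusted p = 1.59e-09). The receptor gene Notch2 itself was at 89.8 to 245 CPM (median 156) in cDC1 and 112 to 259.6 CPM (median 191) in cDC2 and was not called (log2FC -0.20, SE 0.12, adjusted p = 0.172; adjusted p = 0.0448 and log2FC -0.40 with replicates 5 to 8 alone). Notch4 was at 44.8 to 89.1 CPM (median 74.3) in cDC1 and 1.198 to 5.46 CPM (median 2.802) in cDC2 (log2FC 4.63, SE 0.24, adjusted p = 2.4e-09). The ligand Jag2 was at 5.98 to 22.3 CPM (median 15.4) in cDC1 and 0.0407 to 1.49 CPM (median 0.227) in cDC2 (log2FC 5.56). Both lay higher in every cDC1 library. Hes1, a Notch target, was higher in cDC2 (median 38.95 CPM in cDC1 and 91.6 CPM in cDC2, log2FC -1.09), as were the protease Adam10 (-0.88) and the fringe genes Lfng (-0.55) and Mfng (-0.69). Dtx4, a Deltex relative, was higher in cDC1 (1.93).

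Apoptosis regulators showed smaller differences: 11 of 29 tested members were higher in cDC1, 10 were higher in cDC2 and 8 were not called (median log2FC 0.04). Another 4 listed genes had too few counts to be tested. Among all tested genes, 25.9% were higher in cDC1 and 26.7% in cDC2. The death-promoting genes Bid, at 96.3 to 126 CPM (median 109.6) in cDC1 and 34.8 to 49.04 CPM (median 39.3) in cDC2 (log2FC 1.45, SE 0.09, adjusted p = 6.36e-09), Bcl2l11, which encodes BIM (log2FC 1.03), and Bad (1.10) were higher in cDC1. Pmaip1, which encodes NOXA, was at 1483 to 2135 CPM (median 1786) in cDC2 and 918 to 1275 CPM (median 1075) in cDC1 (log2FC -0.72, SE 0.05, adjusted p = 2.63e-08). Cflar, the caspase-8 inhibitor FLIP, was at 70.8 to 113 CPM (median 91.3) in cDC2 and 42.3 to 70.2 CPM (median 56.9) in cDC1 (log2FC -0.67). Groups did not overlap for either gene, although the highest cDC1 library came close to the lowest cDC2 library for Cflar. The survival gene Bcl2a1b was at 324 to 441 CPM (median 384) in cDC2 and 157 to 257 CPM (median 201) in cDC1 (log2FC -0.95), while its near-identical copy Bcl2a1a was higher in cDC1 (0.49), so the family's reads are uncertain. Bcl2 and Bcl2l1 were not called (log2FC -0.22 and 0.23), and Mcl1 differed little (-0.15).

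Cell cycle genes were called less often than not: 7 of 34 tested members were higher in cDC1, 8 were higher in cDC2 and 19 were not called (median log2FC 0.02). Both shares were near those of all tested genes, of which 25.9% were higher in cDC1 and 26.7% in cDC2. Of the D cyclins, Ccnd1 was at 242 to 439 CPM (median 327) in cDC2 and 53.3 to 76.7 CPM (median 60.8) in cDC1 (log2FC -2.41, SE 0.06, adjusted p = 7.55e-13). Ccnd2 was at 83.5 to 165 CPM (median 97.3) in cDC2 and 8.93 to 18.4 CPM (median 11.2) in cDC1 (log2FC -3.20). Ccnd3 was at 146 to 224 CPM (median 175) in cDC1 and 123 to 252 CPM (median 185) in cDC2 and was not called (log2FC -0.03, adjusted p = 0.806). Cdc20, an activator of mitotic exit, was higher in cDC1 at 29.7 to 39.9 CPM (median 33.4) in cDC1 and 9.78 to 20.9 CPM (median 16.8) in cDC2 (log2FC 1.09, SE 0.14, adjusted p = 1.76e-05), as was the mitotic cyclin Ccnb2 (0.99), whose groups overlapped and whose call was lost in a fit of all 24 control libraries (adjusted p = 0.106). Mki67 (-0.11), Top2a (-0.05) and Pcna (0.10) were not called.

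Genes of the respiratory chain lay toward cDC1, with small differences. Of 60 tested members, 49 were higher in cDC1, none was higher in cDC2 and 11 were not called, at a median log2FC of 0.45. Only 4 passed 2-fold. With replicates 1 to 4 alone 29 were higher in cDC1 and 1 in cDC2, and against a 1.5-fold change 9 were called. Cycs, cytochrome c, was at 359 to 548 CPM (median 428) in cDC1 and 171 to 229 CPM (median 193) in cDC2 (log2FC 1.13, SE 0.06, adjusted p = 2.81e-09). Cox7b was at 91.9 to 160.1 CPM (median 119.6) in cDC1 and 44.2 to 80.3 CPM (median 58.7) in cDC2 (log2FC 1.03). Uqcrb was at 117 to 208 CPM (median 161) in cDC1 and 61.2 to 114 CPM (median 77.6) in cDC2 (log2FC 0.97). The groups did not overlap for these genes, though for Uqcrb they nearly touched. Sdha, of complex II, was at 282 to 338 CPM (median 304) in cDC1 and 269.9 to 322 CPM (median 308) in cDC2 and not called (log2FC 0.00, adjusted p = 0.969). In glycolysis 11 of 23 tested members were higher in cDC1, 7 were higher in cDC2 and 5 were not called (median log2FC 0.24). Slc2a3, the glucose transporter GLUT3, was at 200.5 to 283 CPM (median 237) in cDC2 and 4.199 to 10.5 CPM (median 6.78) in cDC1 (log2FC -5.17, SE 0.11, adjusted p = 4.45e-13). The enzymes Ldha, at 1417 to 1652 CPM (median 1529) in cDC1 and 569.5 to 765 CPM (median 707) in cDC2 (log2FC 1.16, SE 0.06, adjusted p = 9.92e-10), Pgk1 (log2FC 1.30), Pfkp (2.27) and Hk3 (4.99) were higher in cDC1, and the monocarboxylate transporter Slc16a3 was higher in cDC2 (-2.38).

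For lipid mediators and cholesterol, 7 of 23 tested members were higher in cDC1, 8 were higher in cDC2 and 8 were not called (median log2FC -0.05). Another 6 listed genes had too few counts to be tested. Of all tested genes, 25.9% were higher in cDC1 and 26.7% in cDC2. Besides Ptgs2, the leukotriene hydrolase gene Lta4h was higher in cDC2, at 209 to 275 CPM (median 253) in cDC2 and 58.7 to 87.6 CPM (median 74.7) in cDC1 (log2FC -1.73, SE 0.06, adjusted p = 3.44e-11). The fatty acid carrier Fabp5 was at 103 to 147 CPM (median 124) in cDC2 and 3.13 to 12.2 CPM (median 6.996) in cDC1 (log2FC -4.24), and Pla2g7 was higher in cDC2 too (-4.85). The synthesis genes Fasn, at 116 to 248 CPM (median 145) in cDC1 and 32.7 to 76.2 CPM (median 58.8) in cDC2 (log2FC 1.46), and Sqle (1.42) were higher in cDC1, while their regulator Srebf2 was at 214 to 312 CPM (median 278) in cDC1 and 195 to 358 CPM (median 297) in cDC2 and not called (log2FC -0.06, adjusted p = 0.396). Of 13 tested genes of retinoic acid and vitamin D, Rxra was higher in cDC1, 5 were higher in cDC2 and 7 were not called. Dhrs3, a retinal reductase, was at 24.2 to 35.5 CPM (median 29.05) in cDC2 and 5.05 to 9.96 CPM (median 7.69) in cDC1 (log2FC -1.92, SE 0.16, adjusted p = 2.28e-07). The receptor Rarg was at 10.4 to 24.6 CPM (median 19.5) in cDC2 and 0 to 2.64 CPM (median 0.827) in cDC1 (log2FC -4.69). The retinoic acid synthesis gene Aldh1a2 was not called (median 7.14 CPM in cDC1 and 9.0003 CPM in cDC2, log2FC -0.50).

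Immediate early genes, which tissue digestion is known to induce, were mostly higher in cDC2: 4 of 24 tested members were higher in cDC1, 17 were higher in cDC2 and 3 were not called (median log2FC -0.76). The summed level of the 24 genes was 20485 to 27099.5 CPM in cDC1 and 35761 to 45758 CPM in cDC2, without overlap. Dusp1, a phosphatase, was at 3723 to 5299.6 CPM (median 4582) in cDC2 and 1379 to 2397 CPM (median 2027) in cDC1 (log2FC -1.18, SE 0.06, adjusted p = 1.12e-09). Zfp36, an RNA decay factor, was at 2949 to 5704 CPM (median 4353) in cDC2 and 1298 to 2636 CPM (median 1684) in cDC1 (log2FC -1.27). Nr4a1 was at 3348 to 6232 CPM (median 4689.9) in cDC2 and 1664 to 3195 CPM (median 2105) in cDC1 (log2FC -1.03). These 3 genes were higher in every cDC2 library than in any cDC1 library. Atf3 was at 543 to 1401 CPM (median 839) in cDC2 and 175 to 556 CPM (median 305) in cDC1, higher in cDC2 in 8 of 8 pairs although the groups overlapped (log2FC -1.48, SE 0.05, adjusted p = 9.89e-12). The 4 genes higher in cDC1 were the heat shock genes Hspa1a (1.33), Hspa1b (1.25), near-identical copies, and Dnajb1 (0.42) and Egr3 (0.51), and without the replicate block none of the 4 was called. Ier5 and Dusp2 were not called (log2FC 0.01, adjusted p = 0.938; log2FC 0.07, adjusted p = 0.416). Both groups had the same digestion per the labels, and its part in the level of any gene was not tested.

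**Figure D5:**
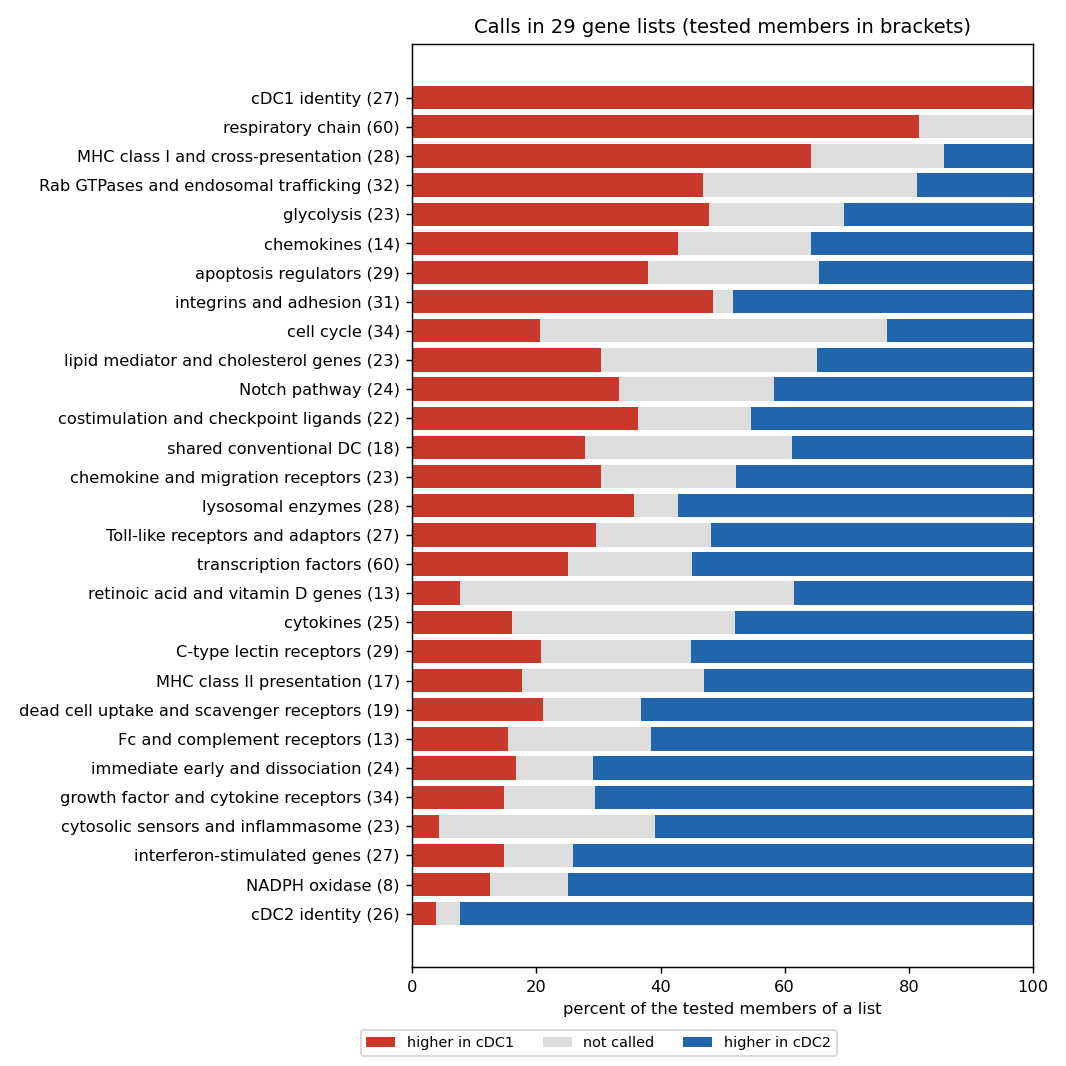
Share of the tested members of each of 29 gene lists (number in brackets) called higher in cDC1 (red), not called (grey) or higher in cDC2 (blue), ordered by the difference between the red and blue shares. The cDC1 identity, respiratory chain and MHC class I lists lie at the top, and the cDC2 identity, NADPH oxidase and interferon-stimulated lists at the bottom, against 25.9% and 26.7% of all tested genes.

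Some of the printed levels carry an uncertainty from the annotation. Libraries from SMART-Seq cDNA keep no strand, and more than 10% of the exonic bases are shared with another annotated gene for Bad (20.5%), Bcl2a1b (49.1%), Bid (17.7%), Ccnd1 (23.4%), Ccr9 (21.5%), Cd274 (14.1%), Cebpb (20.7%), Csf1r (15.1%), Ctla2b (68.7%), Ctsa (17.4%), Ctsb (12.8%), Ctsd (34.4%), Ctsl (26.8%), Cxcl16 (18.3%), Ebi3 (23.4%), H2-Oa (22.8%), Hspa1a (19%), Hvcn1 (44.2%), Ifi35 (16.8%), Il27 (10.1%), Il2rg (30.5%), Irf5 (14.1%), Itgam (68.7%), Mzb1 (57.2%), Ncf1 (11.1%), Nfkb2 (18.1%), P3h2 (28.4%), Pla2g7 (11%), Pram1 (87.5%), Psmb8 (14.7%), Pycard (12.8%), Rab43 (75.4%), Rac1 (51.4%), Rtp4 (13.9%), S100a4 (51.7%), Snx22 (28.5%), Tap2 (18.5%) and Ticam2 (14.5%). These counts can include reads of the neighbour. They can also lack reads that fell in both genes, because 1.06% to 1.16% of counted reads in cDC1 and 1.04% to 1.16% in cDC2 were set aside as ambiguous.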

How the data were processed

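RNA of FACS-sorted spleen cells was amplified with SMART-Seq v4 from 4 ng and sequenced single-end on a NextSeq500, per the labels' protocols. The submitters' processing notes name FastQC 0.11.4, Trimmomatic 0.35, TopHat2 2.1.0, SAMtools 0.1.18 and mm10; which program counted the reads, and on which annotation, is not given in the sources used here. For each library the authors deposited raw counts per gene symbol, 24421 genes plus 5 summary lines that were left out of totals and tests. Reads outside genes are given in the report.

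The 8 cDC1 and 8 cDC2 control libraries were fitted with edgeR 4.0.16 (R 4.3.3; TMM scaling, filterByExpr with a minimum of 10 counts, robust quasi-likelihood F test, group plus replicate number), and p-values were adjusted by Benjamini-Hochberg over 11357 genes. The SE is the log2 fold change divided by the square root of F. DESeq2 1.42.0, other scalings, filters, library sets and leaving out both libraries of a replicate number were alternatives. The edgeR fit was tested on simulated counts, and the other steps were not. Marker sums were compared over same-numbered libraries with exact paired permutation tests over 256 sign assignments.

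The comparison and the gene lists were chosen with earlier results of these data known. Of all listed symbols, 2 were not found in the files. A rule named 194 genes: the 12 highest and 12 lowest log2 fold changes, up to 4 called and 2 uncalled members per list, 6 near-exclusive genes each way and genes of known DC roles. Further list members were named after their values were seen. Genes without counts in a group were set against a floor of 3 counts over the group, which did not move the median of the 2 lists that hold them. Some list members are counted in their lists but not reported here by name. Intervals cover counting error only. No 2 libraries agreed within sampling noise. Promoter windows, without those on chromosome 18, are from RefSeq and gene positions from GENCODE, matched by symbol.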

Additional observations from a re-analysis of the deposited data

Results flagged for a closer look

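Within each group of 8 libraries, the highest or lowest library was compared with the others for 304 genes and 9 marker sums, as the share of the group's range that separates it from its nearest neighbour (Dixon's test at the 95% level). Of 621 groups with a nonzero range, 61 held a library past that value, or 9.82%, where chance flags about 1 in 20 groups. Levels below are in CPM, and a gene at or near 0 in the other libraries passes with few counts.

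Replicate 1 gave 3 in cDC1: above the others (their range in brackets) were Oasl2 at 6.27 (0.962 to 3.18), Pram1 at 0.112 (others at 0) and plasma cell markers at 353 (262 to 287). In the cDC1 library of replicate 2, above were Btla at 814 (616 to 695), Hes1 at 125 (22.4 to 54.7), Naaa at 3099 (2420.4 to 2739) and Scn3a at 0.0407 (others at 0). For cDC1 of replicate 3, above was Cx3cr1 at 2.08 (0 to 0.581), and below was Id2 at 993 (1451 to 1748). Replicate 4 gave 13 in cDC1: above were C1qa at 2.96 (0.447 to 1.29), Csf3r at 1.01 (0.0336 to 0.366), Cybb at 3.89 (0.804 to 2.01), Fcgr3 at 2.39 (0 to 0.8404), Ifi30 at 325 (260.3 to 288), Itgb3 at 2.03 (0 to 0.0447), Lrp1 at 4.42 (0.0336 to 1.56), Msr1 at 0.365 (0 to 0.0379), Nod1 at 61.3 (33.7 to 43.8), Sirpb1b at 0.284 (0 to 0.0407), Tnf at 97.8 (10.7 to 44.3), neutrophil markers at 24.6 (1.16 to 3.95) and erythroid and platelet markers at 6.89 (0.571 to 3.13). In the cDC1 library of replicate 5, above was Mzb1 at 0.569 (0 to 0.2505). For cDC1 of replicate 6, above were Ccnd2 at 18.4 (8.93 to 13.2) and LOC100038947 at 0.101 (others at 0). Replicate 7 gave 3 in cDC1: above were Ifi27l2a at 26.5 (7.99 to 15.5) and Il6 at 14.03 (2.37 to 6.14), and below was Mx1 at 2.38 (7.06 to 11.3). In the cDC1 library of replicate 8, above were Cd209a at 19.8 (3.24 to 9.85), Cd3e at 2.05 (0 to 0.417), Clec4a4 at 0.715 (others at 0), Clec7a at 17.9 (3.34 to 7.27), Il15 at 39.4 (16.7 to 26.6), Mertk at 1.03 (others at 0), Mgl2 at 0.581 (others at 0), Sdc1 at 0.0893 (others at 0) and Tmem176b at 124 (49.7 to 77.8).

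Replicate 1 gave 3 in cDC2: above were Ctla4 at 0.282 (others at 0) and Psme1 at 344 (255 to 291), and below was Csf1r at 301 (433 to 531). In the cDC2 library of replicate 2, above were Cd300lb at 68.8 (24.6 to 39.96), Clec10a at 41.01 (12.4 to 25.4) and Fzd1 at 0.869 (0 to 0.0876), and below was Aim2 at 36.9 (48.96 to 58.02). For cDC2 of replicate 3, above were Ctse at 2.06 (0.0353 to 0.869), Dtx4 at 19.1 (4.03 to 9.999), Etv3 at 432 (204 to 311), Irf4 at 366 (138 to 235) and Ptgis at 0.239 (0 to 0.0438). Replicate 4 gave 1 in cDC2: above was Ctla2b at 0.394 (others at 0). In the cDC2 library of replicate 5, above were Itgae at 1.27 (0 to 0.351), Marco at 0.5265 (others at 0) and Pram1 at 41.6 (23.9 to 31.8). For cDC2 of replicate 6, above was Gcsam at 0.407 (0 to 0.131), and below was Bst2 at 21.95 (28.8 to 34.6). Replicate 7 gave 1 in cDC2: above was Clec4b2 at 0.233 (0 to 0.0438). In the cDC2 library of replicate 8, above were Cd48 at 458 (315 to 364), H2-DMb1 at 479.8 (339 to 404), LOC100038947 at 81.9 (42.1 to 60.6), P3h2 at 0.192 (0 to 0.0725) and Pycard at 122 (87.2 to 102).

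The most such values, 13, came from the cDC1 library of replicate 4, followed by 9 in cDC1 of replicate 8. Without both libraries numbered 4 the counts of called genes were 2868 higher in cDC1 and 2978 higher in cDC2, and without those numbered 8 they were 2807 and 2899. No reason for these values was tested.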

How the results depend on the processing

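Across the alternatives, no called gene of the full fit changed direction and was called again, and none of the 194 genes named by rule reversed. Genes called higher in cDC1 and in cDC2 were 1152 and 1444 when tested against a 1.5-fold change, and the called members of all biology lists fell from 524 to 325. Near-exclusive genes were 32 in cDC1 and 64 in cDC2 with a limit of 0.5 CPM in the lower group, and 21 and 46 with a minimum of 5 CPM in the higher group, against 13 and 27. Leaving out both libraries of each replicate number in turn gave 2761 to 2868 and 2845 to 2978 called genes. The difference in monocyte marker sums (cDC1 minus cDC2) then ranged from -120.2 to -85.7 CPM, with adjusted p = 0.0603 in the exact paired test without replicate 2 or without replicate 4. The erythroid and platelet sum differed by 0.646 to 1.37 CPM, and without replicate 3 it passed (adjusted p = 0.0352). No gene named by rule lost its call when 1 replicate number was left out.

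The replicate block was checked on the libraries' deviations from their group means. Same-numbered libraries correlated at 0.052 to 0.155 (mean 0.090, 2 of 8 pairs over 0.1), and 7 of 8 cDC1 libraries correlated best with their own number. Libraries of different number averaged -0.013, a value that centring on the group means largely forces, so it is no separate comparison. Among libraries of different number, the mean was 0.014 where both were alike in Xist, given below, and -0.033 where they were not. Without the replicate block 2884 and 2913 genes were called, 5597 of the 5977 calls were kept (93.6%), and no call of a gene named by rule was lost. Total counts alone gave 2537 and 3479, DESeq2's Wald test 3111 and 3319. The TMM scaling factors that total counts alone leave out were 0.945 to 0.987 in cDC1 and 1.01 to 1.05 in cDC2, so small differences depend on this step. Of the uncalled genes named by rule, DESeq2 called 7, among them Tlr9 (adjusted p = 0.0335), Ccr2 (0.0251), Etv3 (0.0171), H2-Aa (0.0451) and Cd48 (0.0268). Total counts alone called 12, among them H2-Aa (0.000506), Cd48 (0.00427), Etv3 (0.0181), Ccr2 (0.0218), Klf2 (0.0220), Ifnar1 (0.0410), Il10ra (0.0152) and Cd74 (0.0444). The fit of all 24 control libraries called Bst2 (0.0213), Cd48 (0.0277), Klf2 (0.0322) and Tlr9 (0.0326), and DESeq2's size factors in edgeR called H2-Aa (0.0390) and Cd48 (0.03997). With replicates 1 to 4 alone 4231 genes were called and with replicates 5 to 8 alone 4650. Zbtb46, Bcl6, Cflar, Rxrb and Flt3 lost their calls against a 1.5-fold change. With 8 libraries a group the median SE was 0.15 on the log2 scale, and 3 counts over a group correspond to about 0.0147 CPM.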

Other observations

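Xist, expressed from the inactive X chromosome of females, and Ddx3y, on the Y chromosome, split the libraries in the same way in both groups. In cDC1, Xist was at 98.0, 56.3, 76.3 and 32.5 CPM in replicates 1, 3, 5 and 7 and at 0.0336 to 0.223 CPM in replicates 2, 4, 6 and 8. In cDC2, it was at 120, 180, 160 and 112 CPM in replicates 1, 3, 5 and 7 and at most 0.115 CPM in the other 4. Ddx3y was at 69.9 to 84.3 CPM in cDC1 and 102 to 141 CPM in cDC2 of replicates 2, 4, 6 and 8, and at most 0.144 CPM elsewhere. The labels used here give no sex.

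The spread between libraries was alike in both cell types. Over 7280 genes with at least 10 CPM in both groups, the median coefficient of variation was 16.8% in cDC1 and 15.5% in cDC2. The 24 immediate early genes varied by 22.8% and 21.1%, and 60 respiratory chain genes by 16.7% and 15.9%.

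The design text speaks of 4 replicates for each sample, whereas 8 libraries of each control cell type are labelled. Fits of replicates 1 to 4 and of replicates 5 to 8 are given as alternatives.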
